A study of Mus musculus
Mus spretus with 18 samples.

Results

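Rab GTPase genes were taken as all genes whose symbol reads Rab, a number and at most one lower-case letter. They numbered 57 of the 38924 genes with a value in the expression table. All 57 were measured in TPM, a level of transcripts scaled per gene length and to the total of its library. Of these genes, 49 had at least 1 skipped exon event, an internal exon with counts of the reads that join it to its neighbours and of the reads that skip it. The remaining 8 were Rab20, Rab33a, Rab33b, Rab39, Rab39b, Rab42, Rab44 and Rab9b, which had levels only.

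Rab proteins are small GTPases that mark the membranes of the secretory and endocytic pathways. A guanine nucleotide exchange factor (GEF) loads a Rab with GTP, the loaded Rab recruits effectors such as tethers and motor adaptors to its membrane, and a GTPase-activating protein (GAP) returns it to the GDP form. A prenyl group holds a Rab on the membrane, and soluble chaperones extract it again. In neurons, the Rab3 proteins sit on synaptic vesicles and act in regulated release of transmitter.

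All samples were F1 hybrids from C57BL/6J mothers, a laboratory mouse strain, and SPRET/EiJ fathers, an inbred strain of Mus spretus, so each nucleus carried 1 allele of either strain. Cortex, heart, kidney, lung, spleen and liver came from female animals of 8 weeks and embryonic stem cells (ESC) from 2 independent clones, with 2 libraries for each of the 7 tissues. The paper took its liver data from an earlier study of the same animals, and the labels of the liver libraries spell the strain names differently. An F1 fibroblast line was given 0.1 µM pladienolide B, an inhibitor of the SF3B complex of the spliceosome, or its solvent DMSO for 4 h, with 2 libraries each, and the line is 1 line whatever the number of libraries.

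Junction reads summed over skipped exon events ranged from 46558287 to 129496306 per tissue library and from 129067054 to 151755602 per fibroblast library, where a read counts once for each event it belongs to. Reads assigned to 1 allele ranged from 10338947 to 48555783. The summed level of 4 defining markers per tissue was highest in that tissue's own libraries for all 7 tissues. The summed liver markers also reached 1423 and 1224 TPM in cortex, of which Ttr alone gave 1422 and 1223. Alb, Apoa1 and Cyp2e1 were at most 0.707 TPM in cortex, and the part of these markers in the cortex levels was not tested. The ESC clones were uneven, with 1949 and 715 TPM for the summed epithelial markers Epcam, Cdh1, Krt8 and Krt18. Krt8 (540 and 24.3 TPM), Krt18 (653 and 37.4) and Cdh1 (625 and 430) were lower in the second clone, and Epcam (131 and 223) was higher. With 2 libraries per group, p-values measure only the spread between these samples.

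The first question was how the Rab genes were distributed over the tissues. All 57 passed the filter of at least 1 TPM in at least 2 libraries, and all 57 differed between tissues by at least 1 log2 unit at an adjusted p under 0.05 (limma on log2(TPM + 0.1)). The same call was made for 98.9% of all 21925 genes tested. Cortex had the highest mean of any tissue for 30 Rab genes, and for 27 of these its libraries did not overlap those of the tissue that came next. Spleen was highest for 9, lung and ESC for 5 each, kidney for 4, heart for 3 and liver for 1. These counts of highest tissue were not made over all genes, so they cannot be read as particular to the Rab genes.

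Each tissue was then compared with the mean of the other 6, and a gene was called higher or lower at an adjusted p under 0.05 and at least 1 log2 unit. In cortex 30 Rab genes were higher and 7 were lower, where 35.4% and 20.2% of all genes were higher and lower. The median Rab difference in cortex was 1.05 log2 units, beside 0.38 over all genes. In liver 3 were higher and 39 lower (all genes 7.97% and 67.4%), and the median was −1.47 beside −1.52 over all genes. In heart 4 were higher and 21 lower (all genes 11.6% and 37.5%).

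In lung 15 Rab genes were higher and 3 lower (all genes 25.8% and 14.9%), and in kidney 9 were higher and 5 lower (16.6% and 18.6%). In spleen 14 were higher and 9 lower (26.7% and 22.1%), and in ESC 10 were higher and 10 lower (35.7% and 25%). Members other than the 14 with the largest differences are named below to fill their role, and were chosen after their values were seen. In bulk tissue, fewer cells of a type and less RNA per cell cannot be told apart.

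The counts moved with the scaling of the libraries. After quantile normalization, which gives every library the same distribution of values, cortex had 21 Rab genes higher and 12 lower (all genes 24.3% and 33.6%), heart 6 and 10 (18% and 20.6%), kidney 8 and 6 (15.6% and 21.2%), and lung 13 and 7 (19.3% and 23.2%). Spleen had 12 and 18 (20.4% and 26.6%), liver 7 and 17 (18.3% and 26.3%), and ESC 5 and 17 (27.9% and 28.9%). With it the median of all genes was −0.37 in cortex, against 0.38 without, and −0.22 in liver, against −1.52. The median Rab gene in cortex was then 0.48, above that of all genes under either scaling. In liver the Rab median of −0.33 lay below that of all genes after quantile normalization, and close to it without.

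**Figure D1:**
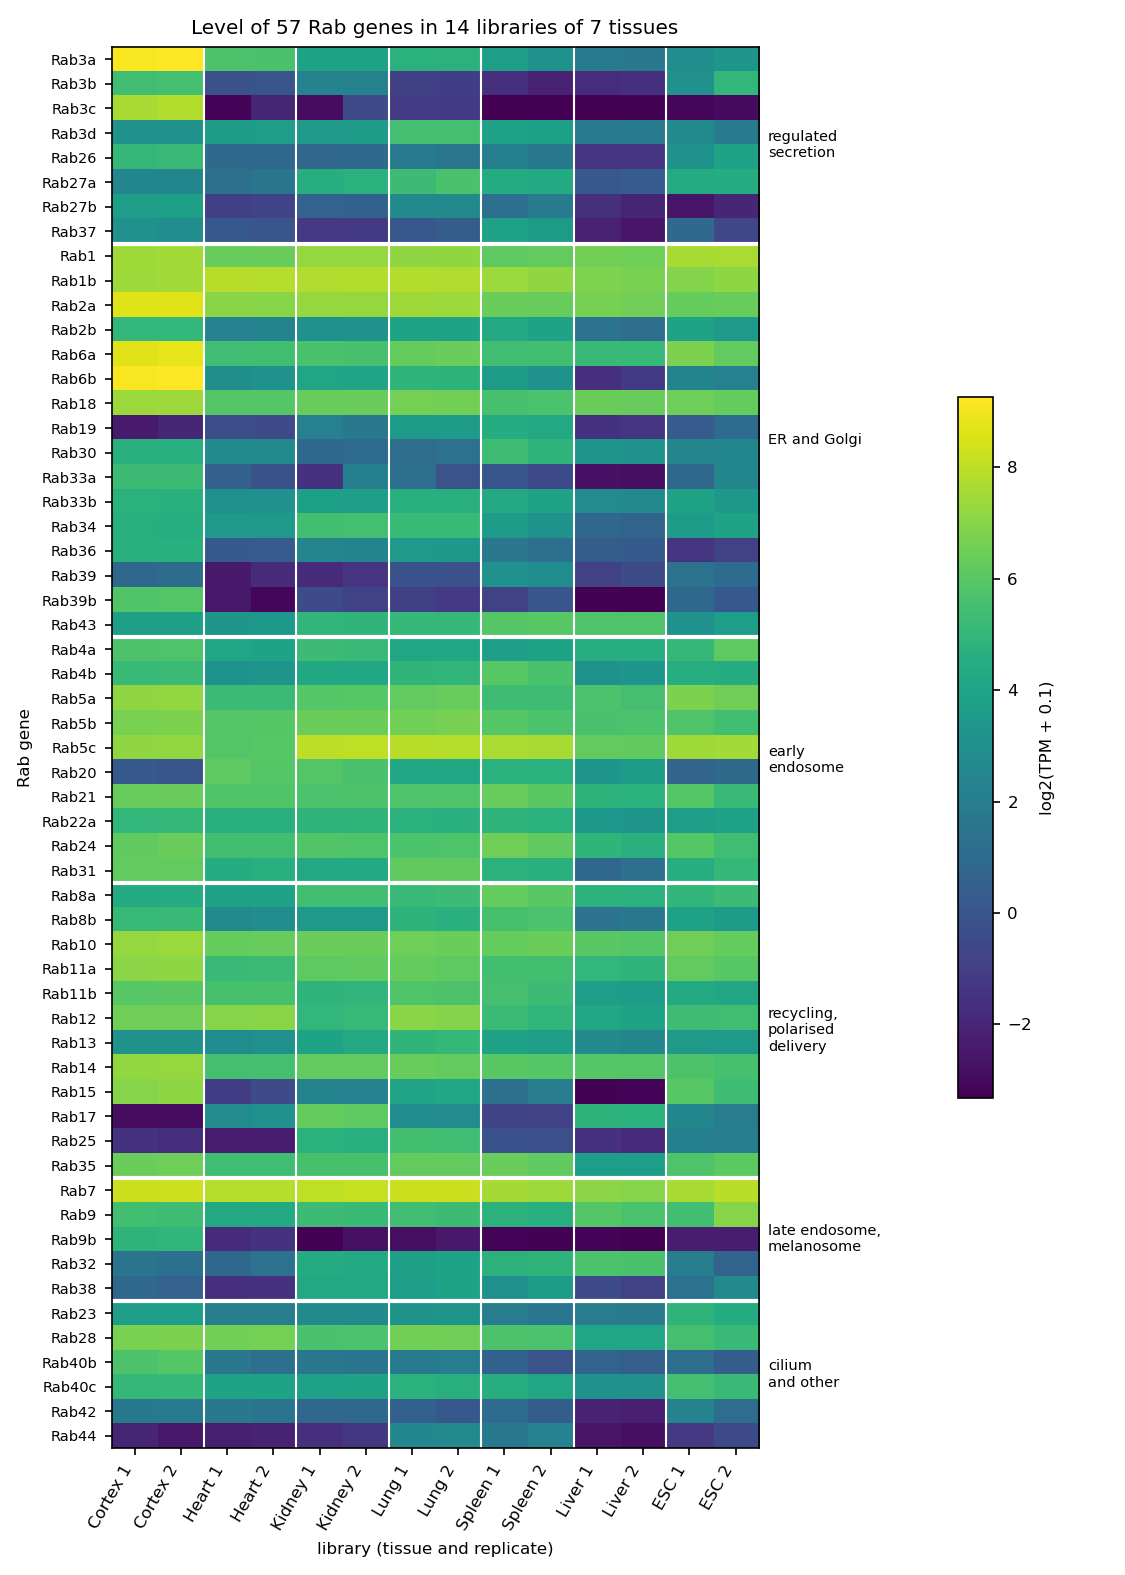
Level of the 57 Rab genes (vertical axis, grouped by role) in the 14 tissue libraries (horizontal axis), as log2(TPM + 0.1) on the colour scale. Cortex had the highest mean for 30 genes, for 27 of them without overlap, counts not made over all genes. Rab3c, Rab9b and Rab39b stood out in cortex alone.

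Counts by role are read against the same shares of all genes, 35.4% higher and 20.2% lower in cortex and 67.4% lower in liver. Of the 8 Rab genes of regulated secretion, 6 were higher in cortex and none lower, with a median of 3.82 log2 units, and all 8 were lower in liver. Rab3c, a synaptic vesicle Rab, had 198 and 223 TPM in cortex, and between 0 and 0.632 TPM in the other 12 tissue libraries. Its cortex libraries did not overlap any other, and the difference from the other tissues was 10.23 log2 units (SE 0.49, adjusted p = 2.83e-08). That size rests on values near 0, and with a pseudocount of 1 in place of 0.1 it was 7.56.

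Rab3a, the main Rab of synaptic vesicles, had 567 and 610.3 TPM in cortex, 54.0 and 50.7 in heart, and 3.65 and 3.21 in liver. Cortex stood above every other tissue, by 5.41 log2 units (SE 0.14, adjusted p = 3.92e-10), and heart came next without overlap with the rest. Rab3b had 41.5 and 44.4 TPM in cortex and 8.23 and 31.9 TPM in the ESC clones, while no other library passed 4.81 TPM. Its difference in cortex was 5.15 log2 units (SE 0.37, adjusted p = 5.98e-07).

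The other secretory members were not led by cortex alone. Rab3d, found on exocrine and lung secretory granules, had 45.5 TPM in both lung libraries and at most 14.4 elsewhere. Rab27a, which acts on melanosomes and on lytic granules of immune cells, had 39.8 and 49.4 TPM in lung, and 22.9 and 25.8 in kidney. Rab37 was highest in spleen, at 14.8 and 11.6 TPM, with cortex next at 8.17 and 7.17. Rab26 and Rab27b were highest in cortex, at 33.4 and 36.1 TPM and at 13.2 and 14.2 TPM.

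Of the 16 Rab genes of the endoplasmic reticulum and Golgi, 11 were higher in cortex and 1 was lower. Rab6b, a Golgi and neuronal form of Rab6, had 563 and 612 TPM in cortex, 29.1 and 28.2 in lung, and 0.231 and 0.341 in liver. Cortex was above all other libraries, by 6.51 log2 units (SE 0.13, adjusted p = 6.40e-11). The widely used form Rab6a also peaked there, at 408 and 438 TPM, but kept at least 34.1 TPM in every tissue library.

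Rab39b, whose loss is known to affect brain function, had 56.8 and 59.5 TPM in cortex and at most 1.76 TPM in any other tissue library, a difference of 7.15 log2 units (SE 0.27, adjusted p = 4.15e-09). Rab33a had 39.5 and 38.9 TPM in cortex, and its replicates were uneven elsewhere, with 0.252 and 4.28 TPM in kidney and 1.78 and 5.30 in ESC. Its difference of 5.34 log2 units had the largest SE of the named genes, 0.76 (adjusted p = 1.00e-04). Rab33a, Rab39b, Rab9 and Rab9b lie on the X chromosome.

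Rab19 ran the other way. It had 21.8 and 18.9 TPM in spleen, 11.4 and 11.9 in lung, and 0.0888 and 0.158 in cortex, so that spleen was above the others by 3.98 log2 units (SE 0.21, adjusted p = 9.89e-08). The summed leukocyte markers Ptprc, Cd52, Lyz2 and Laptm5 were also highest in lung (4790 and 6190 TPM) and spleen (3461 and 3007 TPM). In lung Lyz2 made up most of the sum, at 4616 and 5988 TPM, beside 1303 and 1360 in spleen. Ptprc was higher in spleen, at 382 and 347 TPM, than in lung, at 21.8 and 26.1. Cd52 (1303 and 891 TPM) and Laptm5 (473 and 408 TPM) were also higher in spleen, and at most 88.7 TPM in lung. All 4 were above 0 in both tissues, and their part in the Rab19 levels was not tested.

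Rab1b, which acts between endoplasmic reticulum and Golgi, was the steadiest member. Among the 43 Rab genes with a mean of at least 10 TPM it had the smallest range, 1.10 log2 units, from 106 TPM in liver to 239 TPM in heart. Heart, kidney and lung came first, with 239 and 232, 218 and 225, and 225 and 219 TPM, and the kidney and lung libraries overlapped each other. Its close relative Rab1 was highest in ESC, at 198 and 203 TPM, with cortex next at 174 and 182.

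**Figure D2:**
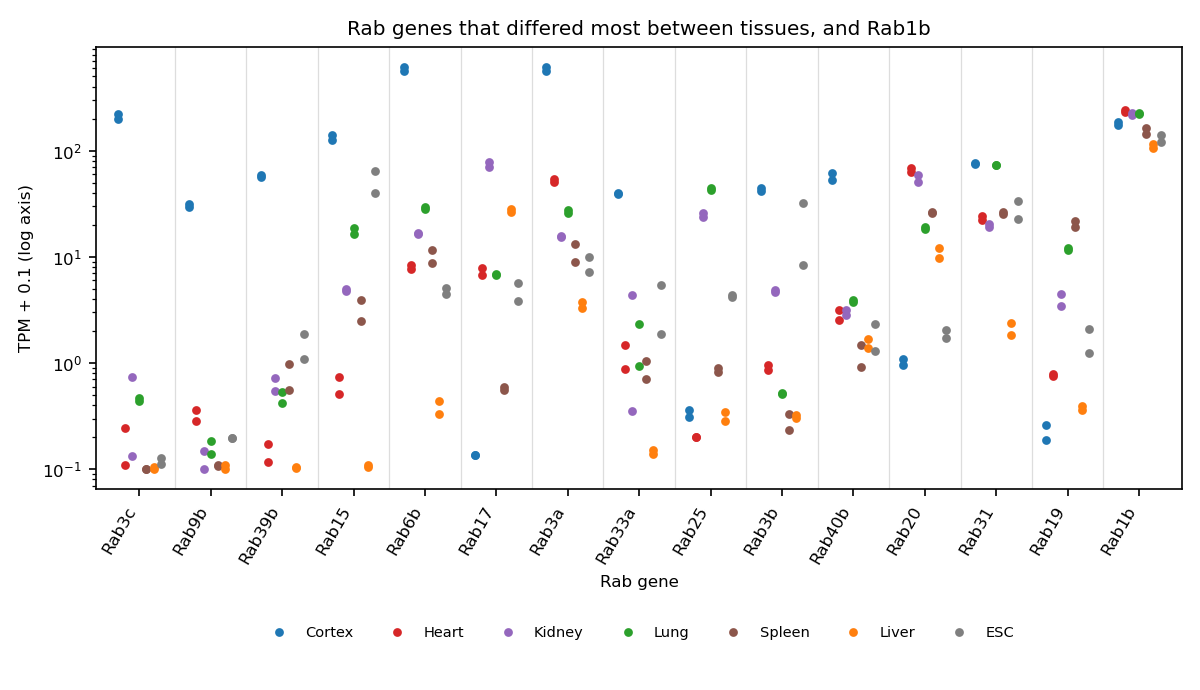
TPM + 0.1 on a log axis for the 14 Rab genes with the largest differences of 1 tissue from the others, and for Rab1b, with 1 point per library and 1 colour per tissue. Cortex points lie apart and above for Rab3c, Rab9b, Rab39b, Rab6b, Rab3a, Rab33a and Rab40b, and lowest for Rab17, Rab20 and Rab19.

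Among the 10 early endosome Rab genes, 3 were higher in cortex and 1 lower, and 6 were lower in liver, shares near or below those of all genes. Rab20 was the member lower in cortex, at 0.991 and 0.848 TPM, beside 69.2 and 62.3 in heart and 58.6 and 50.7 in kidney. The cortex difference was −4.16 log2 units (SE 0.11, adjusted p = 3.28e-10), and the ESC clones, at 1.63 and 1.93 TPM, came next above cortex. Rab31 had 1.73 and 2.30 TPM in liver and 75.8 and 75.2 in cortex, with lung close to cortex at 72.9 and 73.0. Its liver difference of −4.06 log2 units (SE 0.13, adjusted p = 1.86e-09) shrank to −2.38 after quantile normalization.

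The Rab5 genes, which direct fusion of early endosomes, were split. Rab5a was highest in cortex at 144 and 149 TPM and Rab5b at 104 and 109, although the lung libraries of Rab5b came near at 95.9 and 103. Rab5c was highest in kidney at 258 and 267 TPM and lowest in heart at 59.0 and 63.6. Rab4b and Rab24 were highest in spleen, and Rab24 overlapped with cortex there (92.6 and 71.7 against 72.4 and 82.1 TPM).

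Of the 12 Rab genes of recycling and polarised delivery, 5 were higher and 2 lower in cortex, and 8 were lower in liver. Rab15, an endosomal Rab of neural tissue, had 125 and 141 TPM in cortex, 64.1 and 40.04 in ESC, and 0.00438 and 0.00999 in liver. Liver was lowest of all, by −6.57 log2 units (SE 0.21, adjusted p = 1.62e-09), and heart, at 0.408 and 0.636 TPM, came next. With a pseudocount of 1 the difference was −3.67.

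Rab17 and Rab25, Rab genes of polarised epithelia, followed another order. Rab17 had 0.0351 and 0.0357 TPM in cortex, 78.0 and 69.9 in kidney and 27.8 and 26.1 in liver, and cortex was below the others by −5.89 log2 units (SE 0.14, adjusted p = 2.22e-10), or −3.29 with a pseudocount of 1. Rab25 had 43.9 and 42.5 TPM in lung, 26.0 and 23.8 in kidney and 0.103 and 0.0991 in heart, and lung was above the others by 5.27 log2 units (SE 0.13, adjusted p = 1.65e-09).

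The 4 epithelial markers were compared with these genes. Their sum was 708 and 702 TPM in lung, 536 and 477 in kidney and 376 and 381 in liver, against 6.46 and 5.27 in cortex and 7.92 and 8.90 in heart. No marker was at 0 in these libraries, and their part in the Rab17 and Rab25 levels was not tested. The marker sum and these genes did not move together throughout. In liver Rab25 was at 0.248 and 0.182 TPM. Most of the liver sum was Krt8 (163 and 176 TPM) and Krt18 (192 and 182 TPM), while Epcam was at 1.19 and 0.983 TPM. In ESC, where the marker sum was 1949 and 715 TPM, Rab25 was at 4.28 and 4.10 TPM and Rab17 at 5.62 and 3.73 TPM.

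The abundant recycling genes Rab10, Rab11a and Rab14 all peaked in cortex, at 155 and 163, 134 and 139, and 148 and 154 TPM. Rab12 was highest in heart and lung, which overlapped at 125 and 128 against 128 and 120 TPM. Rab8a and Rab8b, which act in delivery to the plasma membrane and cilium, were highest in spleen.

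Of the 5 late endosome and melanosome Rab genes, 1 was higher and 2 were lower in cortex. Rab9b was the one that was higher, with 29.3 and 31.5 TPM in cortex and at most 0.259 TPM in the other tissue libraries, a difference of 7.62 log2 units (SE 0.17, adjusted p = 1.39e-10), or 4.88 with a pseudocount of 1. Rab9, which returns cargo from late endosomes to the Golgi, had 43.2 and 126 TPM in the ESC clones, and overlapped with liver, which came next at 60.7 and 50.8 TPM. Rab7, the general Rab of late endosomes and lysosomes, was between 127 TPM in liver and 314 TPM in cortex in every tissue library. Rab32 and Rab38, the melanosome pair, were highest in liver (51.6 and 50.02 TPM) and in kidney (19.5 and 19.03 TPM).

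The last 6 genes joined cilium-related and less studied members, of which 4 were higher and 1 lower in cortex and all 6 were lower in liver. Rab40b, part of an ubiquitin ligase family, had 53.4 and 61.6 TPM in cortex and at most 3.78 in any other tissue library, a difference of 4.74 log2 units (SE 0.23, adjusted p = 2.95e-08). Rab23, a negative regulator of Hedgehog signalling, was highest in ESC at 28.6 and 21.7 TPM, with cortex next at 12.9 and 13.2. Rab44 was at 5.63 and 6.48 TPM in lung and at most 0.613 TPM in cortex, heart, kidney, liver and ESC.

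Genes that act on Rab proteins were counted from lists of the Rab cycle, beside 35.4% of all genes higher and 20.2% lower in cortex. Of 43 effectors, 27 were higher and 7 lower in cortex, led by Rph3a, a Rab3 effector, with 327 and 361 TPM in cortex (10.43 log2 units, SE 0.24, adjusted p = 1.56e-10). Rims1 and Rims2, Rab3 effectors of the presynaptic active zone, followed at 8.50 and 6.93 log2 units. Of 37 GAPs, 19 were higher and 1 lower, led by Sgsm1 (5.25 log2 units), Tbc1d30 (4.55) and Tbc1d9 (4.09).

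Of 32 exchange factors 11 were higher and 5 lower, near the shares of all genes. Rin1, a Rab5 GEF of forebrain neurons, was higher by 4.36 log2 units, and its relative Rin3 and Dennd2d were lower, at −3.39 and −3.35. Of 7 genes for prenylation and membrane extraction, 3 were higher and none lower, led by Chml and Chm (3.13 and 2.29 log2 units). The lists were not chosen independently of these data.

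Inclusion of Rab exons was then compared between tissues. Inclusion was measured as percent spliced in (PSI), the share of transcripts that hold the exon, here written from 0 to 1 and computed from junction reads per effective length. Of 229 Rab events in 47 genes, 132 events of 115 exons in 41 genes had at least 20 reads in both replicates of at least 2 tissues, and 22 were measured in all 7. The switch score was the highest minus the lowest tissue mean.

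No Rab event reached an adjusted p under 0.05 with a switch score of at least 0.1, where 8.43% of all 47963 autosomal events did (quasi-binomial model), and 6.52% with a score of at least 0.2. At an unadjusted p under 0.05 there were 13 (9.85%, beside 17.8% of all events). The fit of limma on the log2 odds of inclusion also called 0 Rab events, beside 1111 of all events. Rab exons were mostly constitutive in these reads. PSI was at least 0.95 in every tissue measured for 84.1% of the Rab events and 67.6% of all events, and lay between 0.1 and 0.9 in at least 1 tissue for 5 Rab events (3.79%) against 18.8% of all.

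Both Rab events with an adjusted p under 0.05 (1.52%, beside 10.4% of all events) had smaller differences and were named after their values were seen. The 190 bp exon of Rab12 (chr17:66504989-66505178, minus strand, mm10) was nearly always skipped. Its PSI was 0.0714 and 0.0972 in ESC, 0.0442 and 0.0433 in kidney, and 0.000876 and 0.00411 in heart. ESC and kidney were above the other tissues without overlap, with a switch score of 0.0818 (adjusted p = 3.31e-06).

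The 89 bp exon of Rab28 (chr5:41698390-41698478, minus strand) was nearly always included. PSI was 0.904 and 0.891 in cortex and 0.897 and 0.890 in ESC, and at least 0.9504 in every library of the other 5 tissues. Cortex and ESC overlapped each other and no other tissue, with a switch score of 0.0781 (adjusted p = 0.00251). Rab28 is linked to cone photoreceptor function and cilia.

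The widest switch score belonged to a 135 bp exon of Rab7 (chr6:88014586-88014720, minus strand), from 0.00735 in cortex to 0.158 in spleen, and rested on 37 to 89 reads per library. PSI was 0.162 and 0.153 in spleen, 0.0986 and 0.119 in ESC, and 0.0147 and 0 in cortex. The score of 0.1502 did not pass the test (adjusted p = 0.110). Rab9, the X-linked member with events, was kept out of the tests, and 2 of its 3 exons had a PSI of at most 0.00577 and 0.0258 in every library. The third, of 28 bp (chrX:166462315-166462342), had counts in lung, ESC and fibroblasts only. Its PSI was at least 0.995 in lung and ESC, 1 and 1 in DMSO, and 0.761 and 0.771 after pladienolide B. Skipping reads were 243 and 282 after pladienolide B and 0 and 0 in DMSO, a difference that was not tested.

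The second question was what splicing inhibition did in fibroblasts. Of the 57 Rab genes, 43 passed the filter there. After pladienolide B 1 was higher and 32 were lower (adjusted p under 0.05 and at least 0.5 log2 units), where 8.96% and 65.6% of the 13577 genes tested were higher and lower, 74.6% in all. The median Rab difference of −1.16 log2 units lay beside −1.15 over all genes. Relative to the median of all genes, 15 Rab genes were higher and 11 lower (all genes 37.4% and 36.9%), and after quantile normalization 7 were higher and 16 lower (30.9% and 35.2%).

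Rab3a was the single member called higher, from 7.91 and 8.72 TPM in DMSO to 18.9 and 17.5 after pladienolide B. The treated libraries did not overlap the DMSO libraries, and the difference was 1.12 log2 units (SE 0.08, adjusted p = 8.43e-05). Rab31 had 248 and 245 TPM in DMSO and 318 and 307 after treatment, a difference of 0.34 that was below the size set for a call. Relative to the median of all genes Rab3a was at 2.27 and Rab31 at 1.49 log2 units, and both were called higher.

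Rab35, which acts in recycling at the plasma membrane, fell from 73.1 and 74.5 TPM to 3.86 and 4.55, a difference of −4.11 log2 units (SE 0.09, adjusted p = 3.81e-06). Rab43, a Golgi Rab, fell from 31.5 and 28.8 TPM to 1.78 and 1.75 (−4.02 log2 units, SE 0.07, adjusted p = 3.81e-06). Rab23 fell from 16.9 and 17.1 to 2.10 and 2.17 TPM (−2.94 log2 units, SE 0.07, adjusted p = 3.82e-06). None of their treated libraries came near a DMSO library, and all 3 genes also stayed lower relative to the median of all genes, at −2.95, −2.86 and −1.78.

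Rab39b, the gene found mainly in cortex among the tissues, had 12.9 and 13.8 TPM in DMSO-treated fibroblasts and 1.88 and 1.59 after pladienolide B (−2.88 log2 units). Rab22a and Rab5a of early endosomes fell by 2.61 and 1.94 on the log2 scale, and Rab24 fell by 1.82. Rab8b and Rab8a fell by 2.38 and 1.71. X-linked Rab9 fell from 308 and 320 TPM to 58.4 and 66.7, which was −2.33 log2 units.

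Several of the most abundant Rab genes stayed close to their DMSO level in TPM. Rab5c had 184 and 179 TPM in DMSO and 172 and 176 after treatment, Rab1b had 265 and 261 against 238 and 233, and Rab7 had 468 and 470 TPM against 392 and 390. Their log2 differences were −0.06, −0.16 and −0.26, all above the median of all genes, and none met the size for a call. Relative to that median Rab5c, Rab1b and Rab7 were at 1.10, 0.99 and 0.89 log2 units, and each was called higher.

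**Figure D3:**
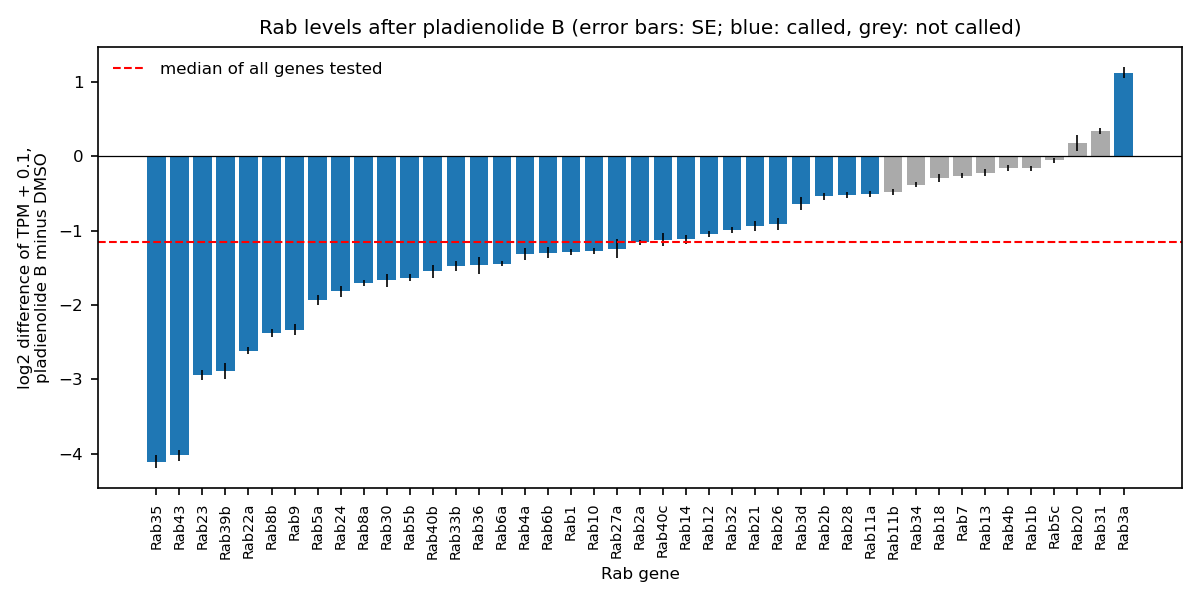
Difference between pladienolide B and DMSO in log2(TPM + 0.1) for the 43 Rab genes tested, with SE as error bars, blue where called and grey where not. The bars run from −4.11 for Rab35 to 1.12 for Rab3a on both sides of the median of all genes, −1.15, drawn as a dashed line.

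By role, beside 65.6% of all genes called lower, lower calls were made for 3 of 4 genes of regulated secretion, 10 of 13 of the endoplasmic reticulum and Golgi, 6 of 10 of early endosomes, 7 of 9 of recycling, 2 of 3 of late endosomes and 4 of 4 of the cilium-related group. Genes that act on Rab proteins are read against the same 65.6%. Of 30 GEFs 28 were lower, with a median of −2.36 log2 units, and Rabif, Rab3il1 and Rab3ip led at −4.10, −3.86 and −3.63. Of 35 GAPs 31 were lower (median −1.97), led by Tbc1d22b at −4.56, Tbc1d13 at −3.69 and Tbc1d25 at −3.31.

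Of 29 effectors 27 were lower, with a median of −2.08, led by Plekhm1 (−3.70), Golga2 (−3.65) and Rabep2 (−3.30). Of the 7 prenylation and extraction genes 4 were lower, with a median of −0.59 beside −1.15 over all genes, led by Rabggta, a subunit of the Rab prenyl transferase, at −2.67, then Chml at −1.34 and Chm at −1.06. No gene of these 4 lists was higher. The lists were not tested against other genes, and Mical3, an effector whose symbol stood for 2 entries, was left out.

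Inclusion of Rab exons after pladienolide B was measured in 208 events of 129 exons in 35 genes. In 52 events (25%) the adjusted p was under 0.05, in each of them with lower PSI after treatment, and they covered 36 exons of 17 genes. Among all 54535 events 17.1% had an adjusted p under 0.05. With a difference of at least 0.1, 16 Rab events were called, all lower, beside 7.95% of all events (7.81% lower and 0.141% higher), so the Rab share was near the background. These 16 events belonged to 12 exons of 8 genes, and events of 1 exon share reads. Values below are of 1 called event per exon, and for most exons other events, with other flanking exons, were not called. Of 4 events each, 1 was called for Rab8b (90 bp), Rab5a (123 bp) and Rab2a (72 bp). Of 2 events each, 1 was called for Rab30 (84 bp), Rab21 (64 bp), Rab24 (100 bp) and Rab14 (67 bp). Of 3 events each, 2 were called for Rab8b (61 bp) and Rab21 (55 bp).

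Rab30, a Golgi Rab, had the widest change, in its 84 bp exon (chr7:92823798-92823881, plus strand). PSI was 1 in both DMSO libraries, on 544 and 539 reads, and 0.432 and 0.355 after pladienolide B, on 129 and 219 reads. Every treated value was below every DMSO value, with a difference of −0.606 (adjusted p = 7.76e-05). The next exon of Rab30, of 184 bp (chr7:92829526-92829709), had PSI of 0.993 and 0.990 in DMSO and 0.873 and 0.892 after treatment (−0.109, adjusted p = 0.00514), and the reads that skip in this event also skip the 84 bp exon.

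Rab8b held the next 2 exons in size. Its 90 bp exon (chr9:66852927-66853016, minus strand) had PSI of 1 and 1 in DMSO and 0.478 and 0.448 after pladienolide B, and its 61 bp exon (chr9:66863423-66863483) had 1 and 1 against 0.632 and 0.495. The differences were −0.537 (adjusted p = 9.97e-05) and −0.436 (adjusted p = 2.35e-04). Both events used the same flanking exons and so the same skipping reads, 39 and 64 after treatment and none in DMSO, and they are 1 observation of skipping rather than 2. These reads also skip the exons at chr9:66854668-66854745 and 66860837-66860897. The TPM of Rab8b fell by 2.38 log2 units at the same time.

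Rab21, an early endosome Rab, had 2 exons called. The 55 bp exon (chr10:115295429-115295483, minus strand) had PSI of 1 and 1 in DMSO and 0.828 and 0.801 after treatment (−0.185, adjusted p = 5.66e-04). The 64 bp exon (chr10:115298828-115298891) had 1 and 1 against 0.902 and 0.806 (−0.146, adjusted p = 0.00371), and its treated libraries differed more from each other. The reads that skip in the 55 bp event join exons on either side of both, so these reads skip the 64 bp exon as well. They also skip the exons at chr10:115301523-115301630 and 115302732-115302791. The skipping reads of the 64 bp event also skip the 55 bp exon.

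Rab5a, the endosomal fusion Rab, also had 2 exons called. Its 94 bp exon (chr17:53500376-53500469, plus strand) was already skipped in 23 and 22 reads of DMSO, with PSI of 0.990 and 0.991, and had 0.873 and 0.842 after pladienolide B (−0.133, adjusted p = 3.03e-04). Its 123 bp exon (chr17:53498388-53498510) had PSI of 1 and 1 against 0.920 and 0.862 (−0.109, adjusted p = 0.00115), and the reads that skip it skip the 94 bp exon too. In Rab2a, a Golgi Rab, 1 of 4 events of the 72 bp exon (chr4:8561152-8561223, plus strand) was called. Its PSI fell from 1 and 1 to 0.9005 and 0.865 on at least 1120 reads per library (−0.117, adjusted p = 3.65e-04). The skipping reads of this event also skip other exons, among them those at chr4:8572526-8572593, 8577955-8578037, 8578471-8578563 and 8582382-8582493.

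Rab24, linked to autophagy, had PSI of 1 and 1 against 0.911 and 0.872 in its 100 bp exon (chr13:55320745-55320844, minus strand), a difference of −0.109 (adjusted p = 0.00990). The skipping reads of this event also skip the exon at chr13:55320927-55320994. The last 2 called exons lay close to the limit of 0.1, the 67 bp exon of Rab14 (chr2:35186674-35186740) at −0.104 and the 83 bp exon of Rab23 (chr1:33736800-33736882) at −0.101. In the Rab14 event the skipping reads also pass over the exons at chr2:35183393-35183423 and 35183744-35183831. Where DMSO libraries held no skipping read, 3 counts would have been a share of 0.152% to 1% of their reads, a limit that covers counting error only.

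**Figure D4:**
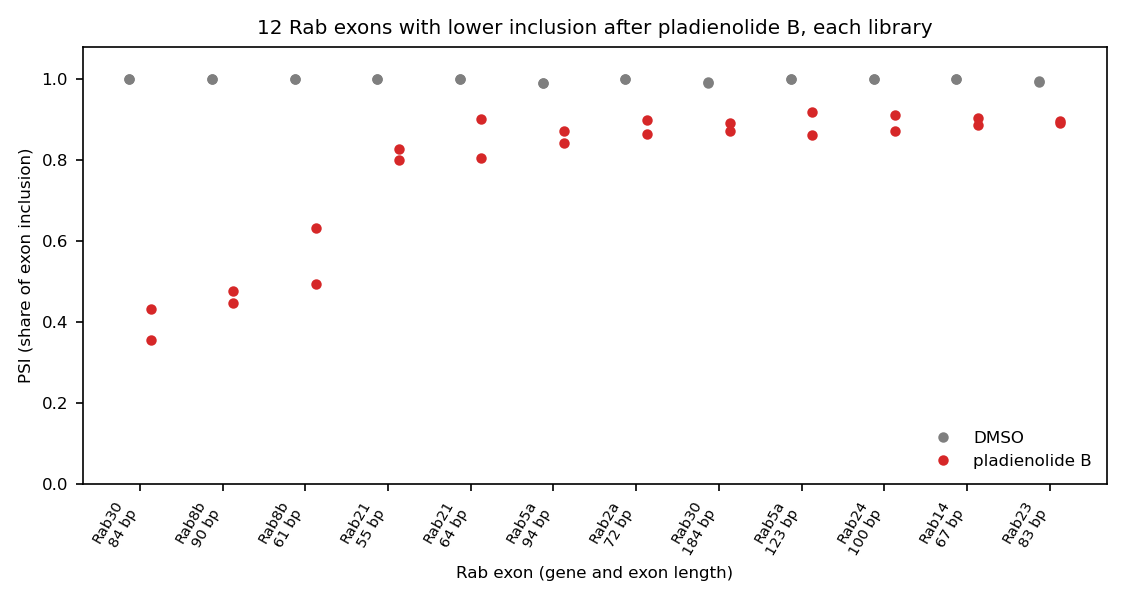
PSI (vertical axis, 0 to 1) of 1 called event for each of the 12 Rab exons called after pladienolide B. There is 1 point per library, grey for DMSO and red for pladienolide B. DMSO points sit at or just below 1, and treated points fall from 0.432 and 0.355 for the 84 bp exon of Rab30 at the left to near 0.89 for the 83 bp exon of Rab23 at the right.

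The lengths of the called exons were 55 to 184 bp, and 4 of 12 (33.3%) were a multiple of 3, against 45 of 117 (38.5%) of the Rab exons not called and 39% of all called exons. For many of the called Rab exons the skipping reads passed over other exons too. The length of the exon alone is then not the length skipped. limma on the log2 odds of inclusion also called 16 Rab events. Without pladienolide B replicate 1 or without replicate 2 the fit called 0 events of any gene, with 1 residual degree of freedom and prior degrees of freedom of 0.661 and 0.757, while the difference of the 84 bp exon of Rab30 was between −0.645 and −0.568. Without DMSO replicate 1 or 2 it called 10 and 14 Rab events. The direction was lower in each of these fits for the 10 largest exons.

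Of retained introns, 2 Rab events had enough reads. The intron of Rab14 (chr2:35182448-35183743) had PSI of 1 and 1 in DMSO and 0.954 and 1 after pladienolide B (adjusted p = 0.278), on 138 to 447 reads. The intron of Rab4b (chr7:27175894-27176157) had 0.0365 and 0.0303 against 0.0278 and 0.0334 (adjusted p = 0.757). In both, treated and DMSO libraries overlapped. Neither was called by either model, nor passed an unadjusted p of 0.05, while 38.3% of all 1802 introns were called, 35.3% higher.

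The third question was whether the alleles of a Rab gene differed in inclusion. In tissues, 153 Rab events of 41 genes had at least 20 reads on each allele in both replicates, in 385 pairs of event and tissue. No event was called in any tissue, where 1.96% of all events were called in at least 1, with 1.62% in cortex and in lung, 2.47% in heart, 2.35% in kidney, 1.39% in spleen, 1.81% in liver and 0.0775% in ESC. At an unadjusted p under 0.05 there were 39 pairs, and 10 pairs had an adjusted p under 0.05 but a difference below 0.1. By tissue, 3.08% (ESC) to 22.2% (lung) of Rab events had an unadjusted p under 0.05. Over all events these shares were 2.7% (ESC) to 13.4% (kidney). At an adjusted p under 0.05 the shares were 0% (ESC) to 3.92% (spleen) of Rab events, beside 0.0775% (ESC) to 3.7% (kidney) of all events. limma on the log2 odds called 1 event, a 149 bp exon of Rab27a in ESC with a difference of 0.123.

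The most repeated allelic difference was in an 87 bp exon of Rab7 (chr6:88015632-88015718, minus strand), a rarely used exon. On the C57BL/6J allele PSI was 0.0335 and 0.0318 in cortex, 0.0170 and 0.0201 in kidney, and 0.0364 and 0.0345 in DMSO-treated fibroblasts. On the SPRET/EiJ allele PSI was at most 4.51e-04 in every library of the 9 groups. In DMSO, 328 and 361 inclusion reads came from the C57BL/6J allele and 0 of 5655 and 0 of 6569 reads from the SPRET/EiJ allele, where 3 counts would have been 0.0531% and 0.0457%.

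C57BL/6J was above SPRET/EiJ in 9 of 9 groups without overlap, by 0.0185 in kidney to 0.0354 in DMSO. The adjusted p was under 0.05 in all 6 organs, from 4.76e-04 in heart to 0.0125 in spleen, and in DMSO (1.03e-06) and pladienolide B (1.17e-05). In ESC it was 0.711 with a difference of 0.0328, in the tissue with the lowest share of all events called. All these differences were below the size of 0.1 set for a call.

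The other pairs of event and tissue with an adjusted p under 0.05 were in cortex, spleen and kidney. A 125 bp exon of Rab4b in cortex had PSI of 1 and 0.996 on C57BL/6J and 0.916 and 0.924 on SPRET/EiJ (adjusted p = 0.0347), and an overlapping 63 bp form had a difference of 0.0365. Rab27a in spleen had 0.0909 and 0.0661 for the 149 bp exon (chr9:73060976-73061124) on C57BL/6J and 0 and 0 on SPRET/EiJ (adjusted p = 0.0411). Rab5c in kidney had 0.00329 and 0.00176 against 0.0551 and 0.0330 for a 150 bp exon (adjusted p = 0.0432). The alleles did not overlap in any of the 3.

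In fibroblasts 145 Rab events of 30 genes were compared between alleles. In DMSO 4.05% of Rab events had an adjusted p under 0.05, beside 4.25% of all events. After pladienolide B these shares were 3.23% and 2.81%. With the size of 0.1 only 1 event was called, where 2.21% of all events were called in at least 1 treatment, 2.32% in DMSO and 1.77% after pladienolide B. It was the 194 bp exon of Rab11a (chr9:64726624-64726817, minus strand) after pladienolide B. Rab11a marks recycling endosomes. PSI was 0.886 and 0.846 on C57BL/6J and 0.962 and 0.984 on SPRET/EiJ, a difference of −0.107 (adjusted p = 0.0414) on at least 412 reads per allele and library.

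In DMSO the same exon had 0.934 and 0.928 against 0.983 and 0.973, a difference of −0.0465 (adjusted p = 0.0900). C57BL/6J was lower in 9 of 9 groups, by −0.0137 in cortex to −0.0827 in spleen among the tissues. The call after pladienolide B was lost with the library as a block (adjusted p = 0.590), a fit that called 0 events of any gene, and with limma on the log2 odds (adjusted p = 0.286). Replicate 1 alone gave a difference of −0.0766, below the limit, and replicate 2 alone −0.138.

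**Figure D5:**
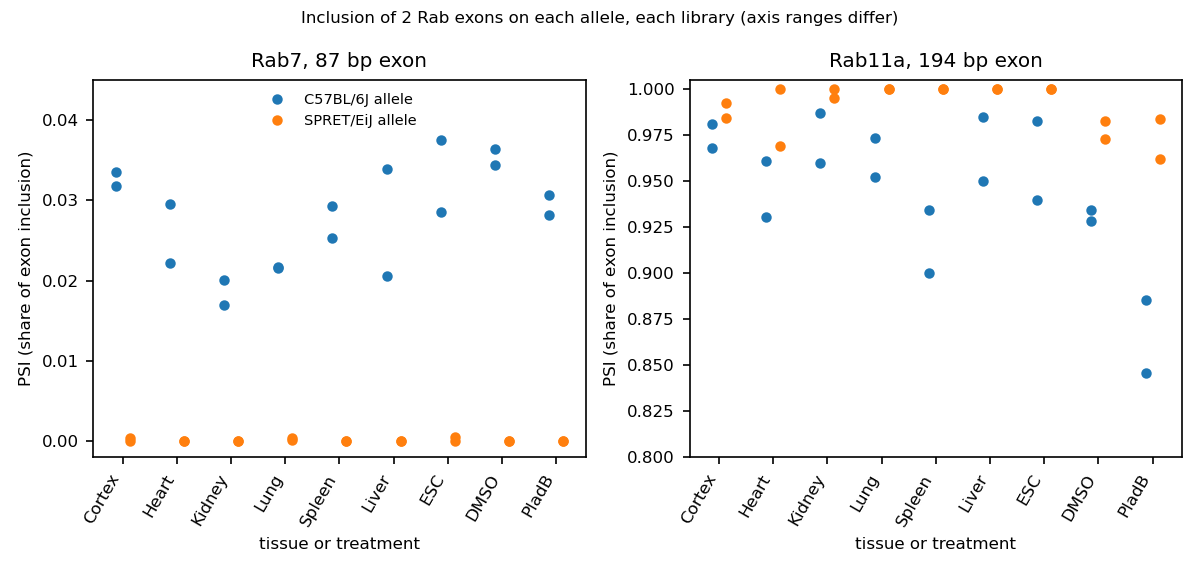
PSI by allele in each library of the 9 groups, blue for C57BL/6J and orange for SPRET/EiJ, for the 87 bp exon of Rab7 (left) and the 194 bp exon of Rab11a (right), on axes of different range. The C57BL/6J points of Rab7 lie between 0.0170 and 0.0375 and those of SPRET/EiJ at or near 0, while for Rab11a the C57BL/6J means are lower in all 9 groups.

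Over 34 Rab events measured in at least 6 groups, 14 had the same sign in every group, 8 with C57BL/6J higher and 6 lower, in 9 genes. The same count was not made over all events, so it cannot be read as particular to the Rab genes. Among them were 2 exons of Rab28, the 78 bp exon (chr5:41633173-41633250) with a median difference of 0.0747 over 7 groups and the 104 bp exon (chr5:41635806-41635909) with 0.0240 over 6. Also among them were 2 events of Rab5c with C57BL/6J lower. The exon at chr11:100719915-100720168 was lower in 9 of 9 groups (lowest adjusted p = 0.0491). The exon at chr11:100721501-100721650 was lower in 6 of 6 (lowest adjusted p = 0.0285). The groups share the same cross, and the 6 organs came from 2 animals. Overlapping events of Rab34 and of Rab4b share reads, as do the 2 events of Rab5c. Neither the groups nor these events are independent tests.

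The widest allelic differences were not called, and their replicates were uneven. An event of the 123 bp exon of Rab5a after pladienolide B had PSI of 0.913 and 1 on C57BL/6J and 1 and 0.264 on SPRET/EiJ, a difference of 0.324 on as few as 20 reads (adjusted p = 0.267). Other events of the same exon, with other flanking exons, differed by 0.0156 and −0.00154. An event of the 94 bp exon of Rab5a was more even, with 0.889 and 0.8995 against 0.7800 and 0.727, a difference of 0.141 (adjusted p = 0.0804), and another event of that exon differed by 0.0380. In heart, an event of a 160 bp exon of Rab17 had 1 and 0.529 against 0.975 and 1 on as few as 26 reads.

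Whether allelic differences varied between tissues or with treatment was tested directly. Of 90 Rab events 0 were called for allele by tissue, with 2 at an unadjusted p under 0.05 (2.22%, all events 2.5%). Of 53 events 0 were called for allele by pladienolide B, with 1 at an unadjusted p under 0.05 (1.89%, all events 4.56%). limma on the log2 odds also called 0 in both. The same interactions were called for 0.0315% and 0.0368% of all events.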

How the data were processed

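The authors aligned reads with HISAT2 2.0.1 to mm10 and to a SPRET/EiJ version of it carrying that strain's variants, and gave each read to the allele it matched better. They counted junction reads with rMATS on Ensembl annotation and deposited these counts, both replicates in one list, without normalization, for all reads and per allele. The deposited expression values are TPM, made by the authors with featureCounts. Effective lengths were used as deposited, and the authors' own p-values and inclusion differences were not used. For heart, kidney and cortex, longer reads were trimmed by the authors.

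PSI was (inclusion reads per effective length) divided by that plus (skipping reads per effective length). Junction counts were fitted with a quasi-binomial model, with dispersion of at least 1 moderated by limma 3.58.1 (R 4.3.3) toward a depth trend. F tests were adjusted by Benjamini-Hochberg over all autosomal events (chromosomes 1 to 19), with 20 reads per library and a difference of 0.1. For alleles in tissues, allelic PSI was within 0.1 of PSI from all reads. TPM were tested with limma on log2(TPM + 0.1), among genes with at least 1 TPM in at least 2 libraries, and a fold on this scale understates changes of low genes. TPM keep no depth. Both models were tried on simulated data of a fixed spread, for tissues, for treatment and, with junction reads, for alleles. The interactions, block fits and introns were not simulated.

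Both alleles of a library come from the same sample, so they are paired, with correlations of their deviations of 0.0938 to 0.424 (tissues) and 0.0438 to 0.0646 (fibroblasts). Members, gene lists and tests were chosen with earlier results of these data known. Named were the 14 genes with the largest tissue differences, the steadiest gene, up to 10 genes and exons per direction after pladienolide B, exons called between alleles and the introns measured. The values of some listed genes are not reported here.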

Additional observations from a re-analysis of the deposited data

How the results depend on the processing

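All 57 Rab genes differed between tissues with the other pseudocount, without the filter, with the replicate block and without ESC, and 55 did after quantile normalization or without either cortex library. The pairs of gene and tissue called, 179, ranged from 156 (without ESC, added after seeing the data) to 183, and the genes called after pladienolide B, 33, from 23 (quantile normalization) to 38 (no filter). Named genes kept their direction and call in every alternative run. For exons after pladienolide B, 16 events became 17 with a minimum of 50 or of 10 reads and 16 with log2 odds. They became 0 with the replicate number as a block, a fit that called 0 of all events and whose prior degrees of freedom were 0.552, and from 0 to 14 when 1 library was left out, with 10 without DMSO replicate 1. The fit without 1 library assumes that the lone library varies like the others. Named exons kept a lower PSI, but their adjusted p rose to 0.384 with the block and to 0.444 at most without 1 library. The call of the Rab24 exon was also lost without either DMSO library, and those of the 64 bp exon of Rab21 and the 184 bp exon of Rab30 without DMSO replicate 1. The cause was not tested.

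Between alleles in tissues, 0 events became 1 with log2 odds. In fibroblasts, 1 event became 3 with a minimum of 50 reads, 0 with the library block and 0 with log2 odds, and 0 to 1 with a single replicate. The difference of the Rab4b intron changed sign without DMSO replicate 1 (0.00026), and ranged from −0.00593 to 0.00026 when 1 library was left out. Exons across tissues, introns and both interactions stayed at 0 in every alternative run. The block changed no other call. The 6 organs came from 2 animals, but the labels do not say that a replicate number marks an animal, so the numbers were not taken to pair samples of different groups. Same-numbered samples correlated with r from −0.0368 to 0.173 for TPM, over 0.1 in 4 of 21 pairs of tissues, from −0.0768 to 0.0551 for PSI (0 of 21), and −0.00878 and 0.00471 between DMSO and pladienolide B. The negative binomial test planned for junction reads was not run, because counts stand in lists, and limma on the log2 odds of inclusion, chosen after seeing the data, took its place. Allelic tests need 20 reads on each allele, which limits the events tested.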
